A study of Mus musculus with 2 samples.

Results

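Genes of the synaptic vesicle and of exocytosis were followed in the dorsal striatum of mice trained to self-administer cocaine intravenously with long access. The set holds the 82 symbols of the deposited counts that belong to the synaptotagmin, Doc2, synapsin, synaptophysin, synaptogyrin, SV2, syntaxin, SNAP, VAMP, complexin, Unc13, RIM, Bassoon and Piccolo families, with NSF and the syntaxin-binding proteins, out of 32531 symbols in all. They were taken by name and not by their values. Of these, 69 had at least 50 counts over both libraries and are called measured here. The other 13 had at most 48, and Stx11, Syt8 and Vamp7 had none in either library. A lack of counts does not show a lack of expression, and Vamp7 had no match in the annotation used here for lengths.

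There was 1 library from escalating mice, whose cocaine intake grew, and 1 from nonescalating mice, whose intake did not. All carried Drd1-EGFP/Rpl10a (line Drd1-TRAP CP73), a BAC transgene that puts a tagged ribosomal protein in Drd1 cells. The line began on FVB/N and Swiss Webster and was crossed to C57BL/6 for at least 9 generations. Both libraries are input, meaning total RNA of the homogenised tissue and not the RNA on tagged ribosomes. Both groups took cocaine, so nothing here compares cocaine with its absence. Animal numbers, age and sex are not stated in the labels.

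A neuron releases transmitter when a vesicle fuses with the plasma membrane. A VAMP protein on the vesicle pairs with a syntaxin and a SNAP protein on the plasma membrane to form the SNARE complex. Unc13 proteins prepare this pairing, synaptotagmins and complexins tie fusion to calcium, and NSF with its adaptors takes the spent complex apart. Most neurons of dorsal striatum are GABAergic projection neurons; the cortical, thalamic and dopaminergic axons that end there have their cell bodies elsewhere. Some symbols serve other membranes: Stx5a, Stx8, Stx16, Stx17 and Stx18 act at the Golgi, endosome, autophagosome or endoplasmic reticulum, and Snap91 encodes the clathrin adaptor AP180.

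With 1 library a group there is no replicate check and no test of the groups. Each ratio is escalating over nonescalating tissue after TMM scaling. Its interval is an exact 95% interval that covers counting error only and treats reads as independent. Reads are not independent molecules, so these intervals may be too narrow even for counting error. A gene was called if it differed by at least 1.5-fold and its interval excluded 1. Assigned reads numbered 9548358 for escalating and 9376097 for nonescalating tissue. The symbol AK140265 took 9.66% of them in escalating and 24.1% in nonescalating tissue. Reads that fell in more than 1 gene were 8.06% of those listed for escalating and 18.9% for nonescalating tissue, reads in no gene were 28.6% for escalating and 18.1% for nonescalating tissue, and the ribosomal RNA symbol Rn45s took 5.15% of assigned reads in escalating and 2.97% in nonescalating tissue. Their part in the members' ratios was not tested. Both libraries held the markers of striatal projection neurons, with all 20 measured and none at 0 in either. They summed to 14893 escalating and 13891 nonescalating CPM (counts scaled to library size). No marker of the dorsal part as such was listed. Glial content did not match. The 18 microglial markers summed to 41.6 escalating CPM, with Trem2 and Gpr34 at 0, against 1924 nonescalating CPM, and the 17 astrocyte markers, none at 0, to 3040 escalating and 18068 nonescalating CPM. In bulk tissue, fewer cells of a type and less RNA per cell cannot be told apart. With 1 library a group, a difference in how the libraries were made cannot be told apart from these either.

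As a whole the release genes lay close to the centre of the transcriptome. Their median log2 ratio was -0.05, beside 0.02 over all 12213 measured genes, with 31 members above 0 and 38 below. Called higher in escalating tissue were 8 of the 69 members, or 11.6%, where 9.33% of all measured genes were called higher. Called lower were 9 members, where 17.1% of all measured genes were called lower. These counts follow the scaling. With total assigned reads 24 members were higher and 4 lower (31.5% and 9.41% of all genes), and with centring on 20 pan-neuronal genes 1 was higher and 17 lower (2.82% and 28.7%). The median of all genes moved to 0.38 and -0.26 under these scalings, which shift every gene alike. With a fold threshold midway between 1 and 1.5, 19 were higher and 15 lower (20.2% and 25.0% of all genes), and with 2-fold 0 and 4 (2.01% and 8.93%).

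**Figure D1:**
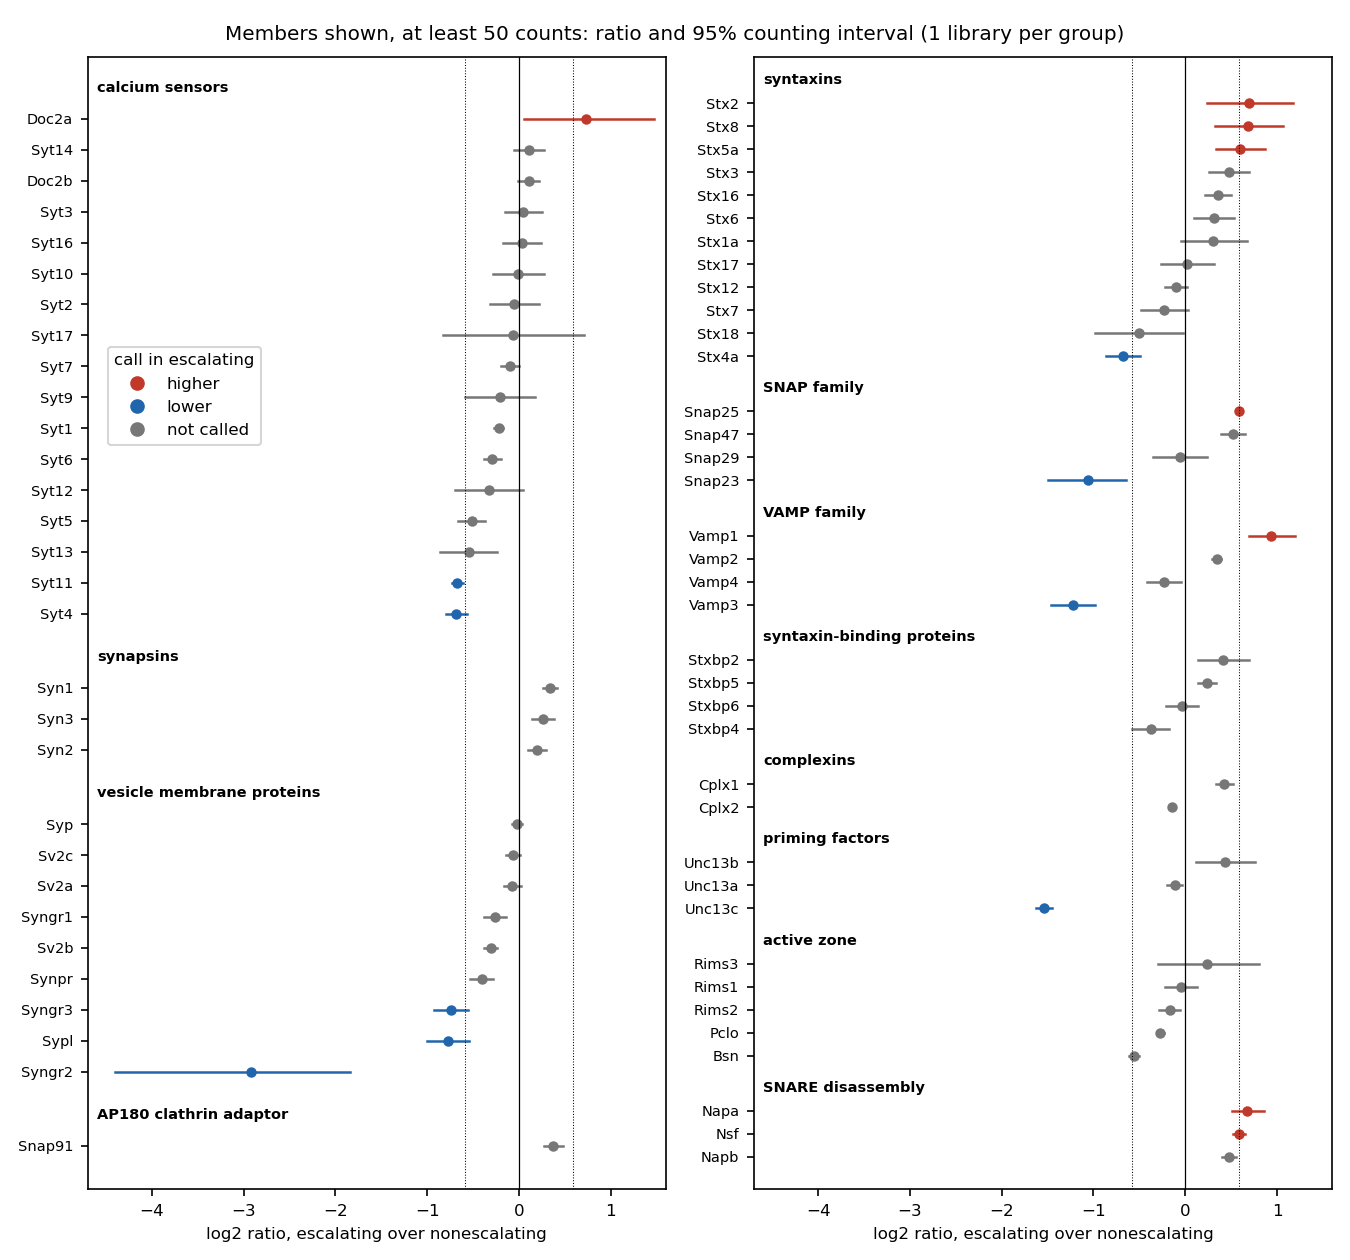
Log2 ratio of escalating over nonescalating tissue (horizontal axis) for 67 measured members by role; points are ratios, bars 95% counting intervals, dotted lines 1.5-fold. The SNARE disassembly genes lie between 0.48 and 0.68; the 9 vesicle membrane genes lie below 0 with this TMM scaling, but 5 of them lie above it with total reads, 3 without the 10 top symbols and 2 with the upper quartile.

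The most abundant SNARE genes leaned towards escalating tissue. Snap25, the neuronal SNARE of the plasma membrane (mm10 chromosome 2, 136713453 to 136782428), gave 40472 counts from escalating tissue against 20576 from nonescalating tissue. Per length this was 551 CPM per kb in escalating and 366 CPM per kb in nonescalating tissue, above every other member in both. Its ratio of 1.5 (interval 1.48 to 1.53) sat at the threshold. Snap25 alone held 23.7% of the reads of the set in escalating tissue (23.5% to 23.9%), against 16.5% in nonescalating tissue (16.3% to 16.7%). Among syntaxin-binding proteins, Stxbp2 at 1.34 (interval 1.1 to 1.62) and Stxbp5 (tomosyn) at 1.18 (interval 1.1 to 1.26) were not called.

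Genes of SNARE disassembly stood on the same side in every scaling tried. Nsf, the ATPase that separates spent complexes (mm10 chromosome 11, 103821782 to 103954056), gave 6597 counts from escalating tissue against 3359 from nonescalating tissue. Its ratio was 1.5 (interval 1.44 to 1.57), and the call was lost with DESeq2 size factors, at a log2 ratio of 0.58. Napa, for the adaptor alpha-SNAP, showed 838 escalating and 400 nonescalating counts and was 1.6-fold higher (interval 1.42 to 1.81). Napb, for the brain-enriched beta-SNAP, showed 4231 escalating and 2321 nonescalating counts and stayed uncalled at 1.39 (interval 1.32 to 1.47). Of the set's reads these 3 genes took 6.82% in escalating and 4.89% in nonescalating tissue.

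The vesicle SNAREs split by family member. Vamp2, the main VAMP of synaptic vesicles, gave 9034 counts from escalating tissue against 5449 from nonescalating tissue, a ratio of 1.27 (interval 1.23 to 1.31). Vamp1, its close relative (mm10 chromosome 6, 125215551 to 125245964), showed 462 escalating and 184 nonescalating counts and was 1.92-fold higher (interval 1.61 to 2.29). That was the largest ratio among members called higher, and Vamp1 alone kept a higher call with pan-neuronal centring (log2 ratio 0.66). Per length it was scarce, at 4.2 CPM per kb in escalating and 2.19 CPM per kb in nonescalating tissue. Vamp3 (cellubrevin), a recycling SNARE of many cell types (mm10 chromosome 4, 151047300 to 151057963), went the other way. It showed 227 escalating and 404 nonescalating counts and was 2.33-fold lower (interval 1.97 to 2.75). Vamp4, of the trans-Golgi network, was not called at 0.851 (interval 0.748 to 0.968). Below the count filter, Vamp8, an endosomal SNARE of many non-neuronal cells, had 5 escalating and 43 nonescalating counts. Vamp5 had 0 escalating and 10 nonescalating counts.

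Plasma membrane SNAREs showed a similar split. Snap23, the widely expressed counterpart of Snap25 (mm10 chromosome 2, 120567671 to 120601255), gave 78 counts from escalating tissue against 125 from nonescalating tissue and was 2.1-fold lower (interval 1.57 to 2.82). Stx4a, a partner of Snap23 outside neurons, showed 455 escalating and 557 nonescalating counts and was 1.6-fold lower (interval 1.41 to 1.82). That call was lost with total reads (log2 ratio -0.32) and without the 10 top symbols (-0.57). Of its exonic bases 5.25% overlap another gene on the opposite strand, and the labels do not state whether counting used strand. In all, 12 of the 69 measured members share at least 5% of their exonic bases with another gene, among them Syp (16.8%), Syt4 (14.5%), Syn3 (14.1%), Snap47 (11.6%) and Syngr2 (7.66%). Without these 12, 7 of 57 members were called higher and 6 lower, an alternative chosen after seeing the data. The neuronal syntaxin Stx1a showed 175 escalating and 108 nonescalating counts with a ratio of 1.24 (interval 0.969 to 1.59), not called. Snap47 reached 1.43 (interval 1.31 to 1.57) and Snap29 0.961 (interval 0.783 to 1.18). The syntaxins called higher were the plasma membrane Stx2, the endosomal Stx8 and the Golgi Stx5a. Stx2 showed 121 escalating and 57 nonescalating counts and was 1.62-fold higher (interval 1.18 to 2.26). Stx8 showed 192 escalating and 91 nonescalating counts and was 1.61-fold higher (interval 1.3 to 2.09). Stx5a showed 350 escalating and 177 nonescalating counts and was 1.51-fold higher (interval 1.26 to 1.82). Of the 13 measured syntaxins 9 lay above 0, with a median log2 ratio of 0.31; the endosomal Stx12 stood at 0.935 (interval 0.86 to 1.02).

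Promoters are shown for Vamp1 and Nsf, called higher, and for Unc13c, a priming factor, and Snap23, called lower, to set the sequence beside opposite ratios. Each RefSeq stretch on GRCm38.p6 runs 5′ to 3′ on the gene's strand from 250 to 31 bases before the start. Capitals mark the GC box GGGCGG, searched on both strands. They lie at chr6:125215331-125215550 (plus strand), chr11:103954087-103954306 (minus strand), chr9:73969068-73969287 (minus strand) and chr2:120567421-120567640 (plus strand).
Vamp1: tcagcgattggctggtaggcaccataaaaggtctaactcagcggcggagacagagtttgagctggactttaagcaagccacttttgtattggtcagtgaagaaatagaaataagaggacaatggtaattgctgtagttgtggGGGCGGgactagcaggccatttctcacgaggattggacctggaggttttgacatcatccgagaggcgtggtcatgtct
Nsf: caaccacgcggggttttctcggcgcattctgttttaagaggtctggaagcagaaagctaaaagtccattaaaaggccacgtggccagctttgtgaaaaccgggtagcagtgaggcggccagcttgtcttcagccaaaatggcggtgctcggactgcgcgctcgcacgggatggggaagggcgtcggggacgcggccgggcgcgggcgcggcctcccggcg
Unc13c: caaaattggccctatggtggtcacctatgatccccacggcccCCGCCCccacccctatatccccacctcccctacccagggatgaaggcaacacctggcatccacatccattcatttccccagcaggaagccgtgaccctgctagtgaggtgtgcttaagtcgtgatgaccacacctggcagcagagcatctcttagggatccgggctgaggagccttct
Snap23: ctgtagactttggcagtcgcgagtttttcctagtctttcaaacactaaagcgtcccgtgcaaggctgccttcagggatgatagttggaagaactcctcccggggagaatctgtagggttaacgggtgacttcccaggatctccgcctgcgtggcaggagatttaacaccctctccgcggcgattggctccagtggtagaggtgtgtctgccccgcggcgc
Vamp1 and Unc13c each held 1 GC box, 108 and 208 bases before the start, and Nsf and Snap23 held none. For each of 61 members with a RefSeq promoter only the first listed promoter was scored. Of these, 40 held the box in the 250 bases before the start (65.6%), against 32.9% of 27025 promoters of all genes. Vamp4 and Stx16 held the box only in a later listed promoter. Scored in this way, the box was in 4 of 6 promoters of members called higher and 5 of 6 of members called lower. The cyclic AMP response element TGACGTCA was in 1 of the 61, Syn1, and in 1.62% of all promoters. GC content had a median of 62% in members and 52% in all genes. A match describes letters in this window only.

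Unc13c stood apart among the priming factors. Unc13 (Munc13) proteins open syntaxin so that a docked vesicle becomes ready to fuse. Unc13c (Munc13-3), best known from the cerebellum (mm10 chromosome 9, 73479422 to 73968966), gave 1663 counts from escalating tissue against 3694 from nonescalating tissue and was 2.91-fold lower (interval 2.74 to 3.08). Unc13a, the main form of forebrain excitatory synapses, showed 2670 escalating and 2207 nonescalating counts and a ratio of 0.925 (interval 0.874 to 0.979). Unc13b showed 227 escalating and 128 nonescalating counts and a ratio of 1.36 (interval 1.09 to 1.7). The order of levels differed between libraries: per length, Unc13c was at 17.5 CPM per kb in escalating and 50.8 CPM per kb in nonescalating tissue, and Unc13a at 19.5 CPM per kb in escalating and 21.1 CPM per kb in nonescalating tissue. Unc13d had 0 escalating and 3 nonescalating counts, too few for a fold.

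Synaptotagmin and Doc2 genes, not all of them calcium sensors, leaned lower, depending on the scaling. Of 17 measured 12 lay below 0, against 4 with total reads, 8 without the 10 top symbols and 16 with pan-neuronal centring. Syt1, the sensor of fast release, gave 6918 counts from escalating tissue against 6166 from nonescalating tissue and a ratio of 0.858 (interval 0.829 to 0.888). Syt11 (mm10 chromosome 3, 88744700 to 88775164), which leads this group per exon length on average but falls behind Syt1 with the longest transcript as length, showed 4091 escalating and 4991 nonescalating counts and was 1.6-fold lower (interval 1.53 to 1.66). Syt4, its closest relative, showed 1100 escalating and 1350 nonescalating counts and was 1.61-fold lower (interval 1.48 to 1.74). Both lower calls were lost with total reads (log2 ratios -0.31 for Syt11 and -0.32 for Syt4) and without the 10 top symbols (-0.57 for Syt11 and -0.57 for Syt4). Neither protein binds calcium in the manner of Syt1. Syt5 was 1.43-fold lower (interval 1.3 to 1.58) and Syt13 1.46-fold lower (interval 1.18 to 1.81), both short of the call. Syt7, a slow, high-affinity sensor, had a ratio of 0.936 (interval 0.874 to 1). The intervals of Syt2, Syt3, Syt9, Syt10, Syt12, Syt14, Syt16 and Syt17 included 1. Doc2b, a soluble high-affinity sensor, was at 1.07 (interval 0.99 to 1.17). Doc2a was 1.68-fold higher (interval 1.04 to 2.78) on 57 escalating and 26 nonescalating counts, and 39.4% of its exonic bases overlap Ino80e on the opposite strand.

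All 9 measured vesicle membrane genes lay below 0 (median log2 ratio -0.31), as they did with DESeq2 and pan-neuronal scaling, but only 4 did with total reads, 6 without the 10 top symbols and 7 with the upper quartile. Syp, the synaptophysin used as a vesicle marker, gave 6508 counts from escalating tissue against 5046 from nonescalating tissue and a ratio of 0.986 (interval 0.95 to 1.02). The SV2 proteins regulate the releasable pool; Sv2a stood at 0.95 (interval 0.891 to 1.01). Sv2c, the form enriched in basal ganglia, stood at 0.958 (interval 0.909 to 1.01) and Sv2b at 0.807 (interval 0.767 to 0.848). Synpr (synaptoporin) was 1.32-fold lower (interval 1.21 to 1.44), short of the call. The 3 called lower were Syngr2, Sypl and Syngr3. Syngr2, found mainly outside neurons, had 7 escalating and 43 nonescalating counts and was 8.03-fold lower (interval 3.58 to 21.2), the largest fold among measured members. Sypl, a synaptophysin relative of many tissues, had 271 escalating and 354 nonescalating counts and was 1.71-fold lower (interval 1.45 to 2.01). Syngr3, a neuronal synaptogyrin, had 435 escalating and 555 nonescalating counts and was 1.67-fold lower (interval 1.47 to 1.9). With total reads Sypl and Syngr3 lost their calls, at log2 ratios of -0.41 for Sypl and -0.38 for Syngr3.

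Synapsins, complexins and active zone genes had no calls. Synapsins hold vesicles in the reserve pool. Syn1 gave 3564 counts from escalating tissue against 2151 from nonescalating tissue, a ratio of 1.27 (interval 1.2 to 1.34); Syn2 stood at 1.14 (interval 1.07 to 1.23) and Syn3 at 1.2 (interval 1.11 to 1.3). With pan-neuronal centring their log2 ratios were 0.06, -0.09 and -0.02, so that Syn2 and Syn3 changed side. Complexins bind the assembled SNARE complex. Cplx2 showed 13796 escalating and 11663 nonescalating counts and a ratio of 0.904 (interval 0.882 to 0.927). Per exon length it stood next to Snap25, at 259 CPM per kb in escalating and 286 CPM per kb in nonescalating tissue, but with the longest transcript as length Vamp2 lay above it. Cplx1 showed 2553 escalating and 1455 nonescalating counts and a ratio of 1.34 (interval 1.26 to 1.43). Bassoon and Piccolo are the giant scaffolds of the active zone. Bsn showed 5481 escalating and 6153 nonescalating counts and was 1.47-fold lower (interval 1.42 to 1.52), just short of the call. Pclo showed 10643 escalating and 9821 nonescalating counts and was 1.21-fold lower (interval 1.17 to 1.24), turning to a log2 ratio of 0.09 with total reads. Rims1, which links vesicles to calcium channels, stood at 0.967 (interval 0.855 to 1.09). Of the set's reads the active zone genes took 10.6% in escalating and 14.2% in nonescalating tissue. Snap91 stood at 1.29 (interval 1.2 to 1.39).

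**Figure D2:**
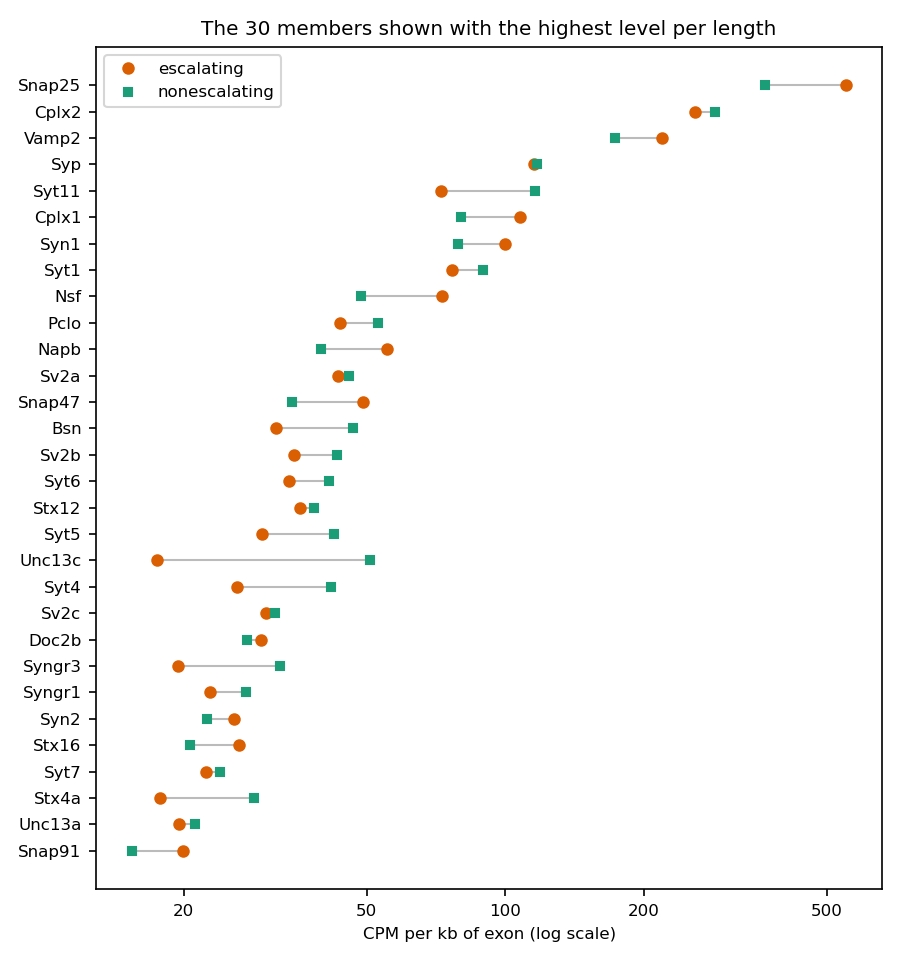
Level per length (CPM per kb of exon, log scale) of 30 members with high mean level, in escalating and nonescalating tissue. Snap25 leads in both, at 551 in escalating and 366 in nonescalating tissue, and Unc13c lies at 17.5 in escalating and 50.8 in nonescalating tissue.

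Level and length did not order the ratios. Across 23 members each, the median log2 ratio was -0.07 at the highest levels per length, -0.05 in the middle and 0.03 at the lowest. Over the 69 members, which share libraries, log2 ratio and exon length had Pearson's r = 0.19 and Spearman's rho = 0.07. A grouping chosen after the values were seen set them further apart. Among 24 synaptotagmins and multi-span vesicle proteins 21 lay below 0 (median -0.24). Among 28 members with no membrane-spanning segment 11 did (median 0.24), and among 17 syntaxins and VAMPs 6 did (median 0.31). Over all measured genes 48.6% lay below 0. With total reads the numbers below 0 were 8 of 24, 4 of 28 and 3 of 17.

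Ratios between related members do not depend on scaling, and 23 of 24 listed pairs could be measured. Snap23 to Snap25 was 3.15-fold lower (interval 2.36 to 4.24) in escalating tissue. Vamp3 to Vamp2 was 2.95-fold lower (interval 2.49 to 3.5), and Unc13c to Unc13a was 2.69-fold lower (interval 2.48 to 2.92). Sypl to Syp was 1.68-fold lower (interval 1.43 to 1.99). These 4 pairs had intervals well clear of 1. Vamp1 to Vamp2 was 1.51-fold higher (interval 1.27 to 1.81), at the threshold; with a pseudocount of 5 its log2 value of 0.58 fell just under it. Cplx1 to Cplx2, at 1.48-fold higher (interval 1.38 to 1.59), and Unc13b to Unc13a, at 1.47-fold higher (interval 1.17 to 1.85), stayed just outside. Intervals that included 1 were those of Syt4 to Syt11, at 0.994 (interval 0.908 to 1.09), Sv2c to Sv2a, at 1.01 (interval 0.929 to 1.1), and Syn3 to Syn1, at 0.945 (interval 0.858 to 1.04).

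**Figure D3:**
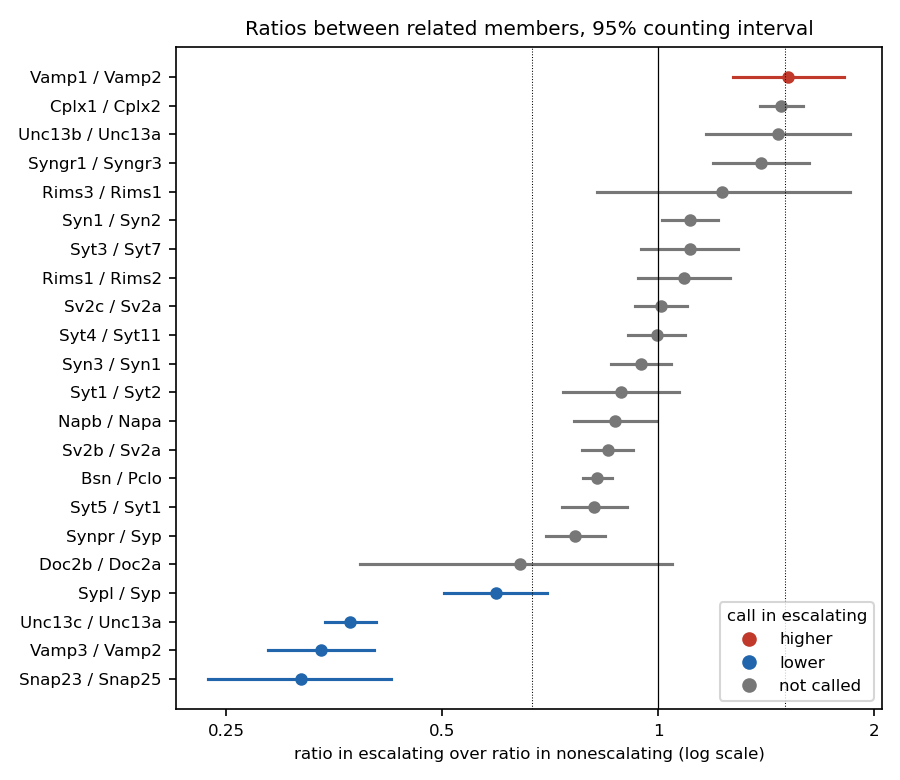
Ratio of 2 related members in escalating over the same ratio in nonescalating tissue (log scale), with 95% counting intervals and dotted lines at 1.5-fold. Of the 22 pairs drawn 4 were called lower, from Snap23 / Snap25 at 0.317 to Sypl / Syp at 0.594, and 1 higher.

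Most glial markers were lower in escalating tissue, where members called lower are low by definition. Of called members widely expressed outside neurons, Snap23, Vamp3, Stx4a, Sypl and Syngr2 were lower and Stx2, Stx5a, Stx8, Napa and Nsf higher. Uncalled members of this kind lay on both sides, such as Vamp4 at a ratio of 0.851 and Stx16 at 1.28. Expression by cell type was not measured here. This sorting was made after the values were seen, and its relation to glial content was not tested. All 18 microglial and all 17 astrocyte markers were called lower, with median log2 ratios of -5.71 and -1.86. So were 12 of 17 mature oligodendrocyte markers, summing to 2040 escalating against 4829 nonescalating CPM, and 11 of 14 endothelial markers, summing to 147 escalating against 267 nonescalating CPM. Their part in the members' ratios was not tested. Pan-neuronal markers had a median of 0.28, with 2 of 20 higher and 1 lower, and striatal projection neuron markers -0.09, with 1 of 20 higher and 3 lower. Of 10 measured cortical excitatory markers 5 were higher and 3 lower, with a median log2 ratio of 0.36. All 13 listed summed to 1908 escalating and 3527 nonescalating CPM, so that median and sum point in opposite directions. The part of cortical tissue in the ratios of Snap25, Nsf, Napa and Vamp1 was not tested.

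Neighbouring pathways were mixed with TMM scaling. Over all measured genes the shares called were 9.33% higher and 17.1% lower. Calls of single pathway genes are given with TMM only. The other scalings shift every gene alike, so calls near the threshold could be lost under them. Of 19 measured partners of the active zone and Rab3, 4 were higher and 0 lower, with a median log2 ratio of 0.18. Rab3b, a vesicle GTPase, showed 677 escalating and 257 nonescalating counts and was 2.01-fold higher (interval 1.74 to 2.33). Rab3a, the main Rab3 of brain vesicles, was 1.65-fold higher (interval 1.53 to 1.78), and Lin7b, a scaffold with 24.4% of exonic bases shared, 1.94-fold higher (interval 1.57 to 2.42). Of 26 endocytosis genes 2 were higher and 1 lower (median 0.23). Dnm1, the neuronal dynamin that pinches vesicles off, showed 4888 escalating and 2141 nonescalating counts and was 1.75-fold higher (interval 1.66 to 1.84). Sh3gl2 (endophilin A1) was 1.61-fold higher (interval 1.49 to 1.74), and Eps15, an endocytic scaffold, was 1.93-fold lower (interval 1.79 to 2.07). Of 7 vesicular transmitter transporters 1 was higher and 4 lower (median -0.65). Slc17a7 (VGLUT1), also on the cortical list, had 291 escalating and 97 nonescalating counts and was 2.29-fold higher (interval 1.82 to 2.92). Slc17a8 (VGLUT3), carried in striatum by cholinergic interneurons, was 2.19-fold lower (interval 1.74 to 2.76), and Slc10a4 was 1.67-fold lower (interval 1.3 to 2.14). Slc32a1 (VGAT), which loads GABA, was not called at 0.827 (interval 0.759 to 0.901). Of 25 other regulators 4 were higher and 3 lower (median 0.13). Among them Sncb (beta-synuclein) was 2.81-fold higher (interval 2.3 to 3.46), Napg (gamma-SNAP) 1.71-fold higher (interval 1.55 to 1.9) and Cadps2, a dense-core vesicle factor, 1.64-fold higher (interval 1.21 to 2.23).

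**Figure D4:**
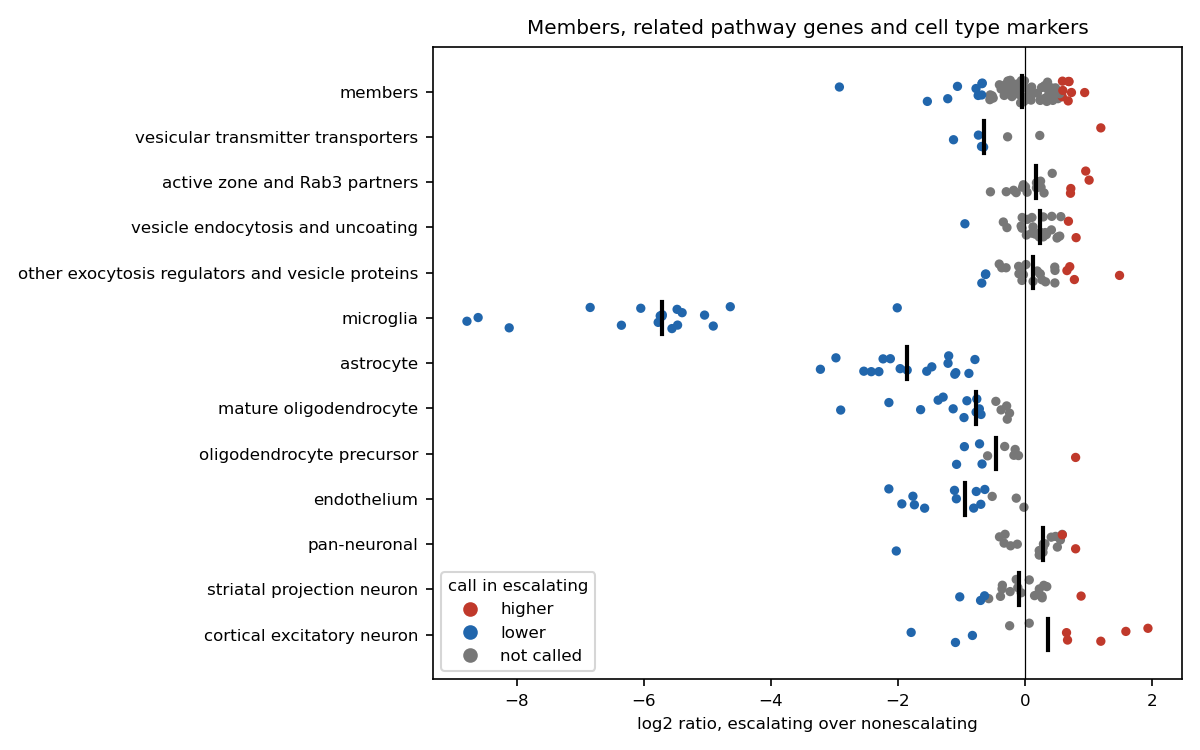
Log2 ratio of escalating over nonescalating tissue (horizontal axis) for measured members, pathway genes and cell type markers; points are genes and black bars medians. The members centre on -0.05, and the microglia and astrocyte lists on -5.71 and -1.86.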

How the data were processed

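The authors deposited whole-number read counts per gene symbol, in 1 library for each group; groups were read from the titles. STAR 2.0.0e, HTSeq and the build mm10 are named in the submitters' processing notes, and the annotation and strand option were not stated there. Reads assigned to a gene were 53.8% of those listed for escalating and 55.3% for nonescalating tissue; reads listed without a gene were left out.

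TMM factors were 1.13 for escalating and 0.882 for nonescalating tissue (edgeR 4.0.16, R 4.3.3). Log2 ratios and calls used a pseudocount of 0.5; printed folds do not. Genes needed 50 counts over both libraries. Intervals are Clopper-Pearson intervals of the split of counts and, for pairs, exact conditional odds ratio intervals (scipy 1.17.1). The floor of 3 counts is 0.277 escalating and 0.363 nonescalating CPM. Lengths and positions are from GENCODE M21, where 81 of 82 members matched. The calling was tested only on simulated counts with counting error and no variation between animals or libraries, so this test cannot show whether the calls would repeat. DESeq2 1.42.0 size factors were an alternative.

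Members, roles, pairs and lists were chosen with earlier results of these data known. The genes named are a set of core genes, every called member, the most abundant of each role, called pairs and the 3 largest calls of each pathway list; others were named after their values were seen. Some members covered by this rule are not reported here by name.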

Additional observations from a re-analysis of the deposited data

How the results depend on the processing

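Members called higher numbered 24 with total assigned reads, 1 with pan-neuronal centring, 19 with the fold threshold midway between 1 and 1.5 and 0 with 2-fold, beside 8 as reported. There is no p-value, because no replicates exist. Members called lower numbered 4, 17, 15 and 4 under the same settings, beside 9. The median log2 ratio of members was 0.31 with total reads, -0.33 with pan-neuronal centring and 0.060 without the 10 top symbols. DESeq2 size factors, upper-quartile scaling, other count minimums (10, 200 or none), a pseudocount of 5 and no interval condition left both counts within 1.5 times. Leaving out members with 5% or more of exonic bases shared, chosen after seeing the data, left 7 higher and 6 lower of 57. No called member changed sign under any scaling or with the larger pseudocount. Total reads ended the lower calls of Stx4a, Syngr3, Sypl, Syt4 and Syt11, those of Stx4a, Syt4 and Syt11 also ended without the 10 top symbols (12 members higher and 6 lower there), and pan-neuronal centring ended every higher call but that of Vamp1. Stx5a lost its call with a pseudocount of 5. With the longest transcript as length, 11 of 24 levels of core genes moved by over 1.5 times. No library could be left out. No paired analysis was possible because each group has 1 library. Few counts limit Doc2a and Syngr2. The cause of these shifts was not tested.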
